A study of Mus musculus with 24 samples.

Results

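The 8 genes described here are used to mark the cells that form the wall of brain capillaries. They were taken by symbol from the deposited counts of 55254 genes, 4 as genes of endothelial cells (Cldn5, Flt1, Pecam1 and Ly6c1) and 4 as genes of pericytes (Pdgfrb, Rgs5, Abcc9 and Vtn), and all 8 were listed for all 24 libraries. The list was given by name and applies no threshold on measured values. The libraries hold nuclear RNA of the hippocampus of untreated male C57BL/6N mice aged 6 months, from WT mice, mice labelled Mutyh-/-, mice labelled Ogg1-/- and mice labelled as double knockouts of both genes (DKO). Ogg1 and Mutyh encode DNA glycosylases that act in the repair of oxidized guanine. Fixed nuclei were sorted by staining for NeuN, the product of Rbfox3 and a marker of neuronal nuclei. NeuN+ nuclei are neurons, and the NeuN- remainder is mostly glia and also holds the nuclei of the vessel wall. Each of the 8 groups of genotype and fraction has 3 replicates. The study states that nuclei of several animals of the same genotype were pooled, and its methods do not say how the replicates relate to the pools, so p-values measure the spread between these libraries, which may be technical. No step enriched vascular nuclei, and the labels put the fractions on separate lanes, so lane and fraction cannot be told apart.

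Endothelial cells line the vessel, and in the brain they are sealed to each other by tight junctions, which with specialised transporters make up the blood-brain barrier. Pericytes sit on the outer face of the capillary inside its basement membrane. They depend on platelet-derived growth factor B from the endothelium, and they help to set the tone and the tightness of the vessel. In a bulk library, fewer cells of a type and less RNA per cell cannot be told apart.

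Each library held between 56563586 and 96192142 counts, with a median of 70434612. Rbfox3 averaged 1459 ± 26.6 CPM (counts scaled to library size with edgeR's TMM factors over all 24 libraries, SD, n = 3) in WT NeuN+ libraries and lay between 80.3 and 97.6 CPM in the 3 WT NeuN- libraries. Ogg1 RNA did not pass the test against WT in libraries labelled Ogg1-/- (log2 fold change 0.05 in NeuN+ and 0.02 in NeuN-), and Mutyh RNA was higher in libraries labelled Mutyh-/-, with log2 fold changes of 3.15 in NeuN+ and 1.85 in NeuN-, and in those labelled DKO, with 2.99 and 1.61. The latter goes against the direction of the label, and a genotype named below is the one given on the label.

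RefSeq start regions on GRCm38.p6, the 250 bases before the transcription start, were at hand for 6 of the 8 genes, not for Pecam1 and Pdgfrb. Short motifs were searched on both strands, namely AGGAAG or CGGAAG, a core bound by ETS factors, which are well-known regulators of endothelial genes, AGATAA, a core bound by GATA factors, and TATAAA, the TATA box. Of all 32851 start regions of the table, 39.2% held an ETS core, 9.99% the GATA core and 12.4% the TATA box. Regions are shown for 3 of the 6 genes, Flt1, Rgs5 and Vtn. Capitals mark the matches. The region of Flt1 lies at chr5:147726012-147726261 on the minus strand and holds 2 ETS cores and 1 TATA box, that of Rgs5 at chr1:169655251-169655500 on the plus strand holds 1 GATA core on the opposite strand, and that of Vtn at chr11:78498870-78499090 on the plus strand, shown up to the first base of the GENCODE gene, holds 2 overlapping TATA matches.
Flt1: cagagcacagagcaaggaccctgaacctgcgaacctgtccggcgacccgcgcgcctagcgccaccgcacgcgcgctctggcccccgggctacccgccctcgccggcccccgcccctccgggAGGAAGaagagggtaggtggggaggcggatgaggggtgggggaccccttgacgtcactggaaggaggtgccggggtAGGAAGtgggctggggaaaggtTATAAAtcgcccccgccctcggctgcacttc
Rgs5: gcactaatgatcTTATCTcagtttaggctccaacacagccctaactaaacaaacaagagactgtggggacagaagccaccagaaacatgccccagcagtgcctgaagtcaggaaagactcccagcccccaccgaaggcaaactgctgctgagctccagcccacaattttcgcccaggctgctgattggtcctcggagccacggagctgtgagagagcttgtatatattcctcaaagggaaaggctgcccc
Vtn: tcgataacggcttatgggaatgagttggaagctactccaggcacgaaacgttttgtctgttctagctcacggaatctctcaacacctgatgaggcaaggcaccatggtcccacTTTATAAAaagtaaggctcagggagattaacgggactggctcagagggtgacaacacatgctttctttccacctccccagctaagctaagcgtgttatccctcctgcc
None of these letters was found in the windows of Cldn5 and Abcc9. Ly6c1 has 2 start regions in the table, of which 1 held a TATA box and the other 3 ETS cores. These ETS cores lie in the part of the region inside the GENCODE gene, and the 83 bases before the gene held no match. A match describes letters in a window and is not a binding site.

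Ly6c1 has a neighbour of almost the same sequence, Ly6c2, so its counts need care. Their coding sequences of 396 bases differ at 9 positions (97.7% identical). The first 90 coding bases, in which 6 of the 9 differences lie, are shown from GENCODE transcripts on GRCm38, with the differing bases in capitals. They span chr15:75047450-75048511 in Ly6c1 and chr15:75110608-75111667 in Ly6c2, both on the minus strand and with an intron between.
Ly6c1: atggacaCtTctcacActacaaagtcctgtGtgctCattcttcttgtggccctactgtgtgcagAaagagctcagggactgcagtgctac
Ly6c2: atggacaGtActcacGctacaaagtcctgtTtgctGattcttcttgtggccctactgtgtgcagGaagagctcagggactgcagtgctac
Of the 1756 distinct stretches of 100 bases, the read length, in Ly6c1 transcripts, 159 (9.05%) also occur in Ly6c2 transcripts. How reads that match both genes were counted is not given in the sources used here. Ly6c2 itself had 1 to 11 counts in the NeuN- libraries, against 12 to 42 for Ly6c1.

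The endothelial genes spanned a wide range of levels. Flt1, the VEGF receptor 1, which binds VEGF and limits its signal, lies on GRCm38 chromosome 5 from 147561604 to 147726011 on the minus strand. Over the 12 NeuN- libraries it had 9.35 to 20.4 CPM (median 12.8), or 633 to 1371 counts. Pecam1, the endothelial adhesion molecule CD31, lies on chromosome 11 from 106654217 to 106750628 on the minus strand and had 5.24 to 6.92 CPM (median 5.84). Cldn5, the main claudin of the tight junctions of brain endothelium, is a gene of a single exon of 1416 bases on chromosome 16 from 18776847 to 18778262 on the plus strand, and had 0.436 to 0.965 CPM (median 0.655), or 35 to 75 counts. Ly6c1, a small membrane-anchored protein of the Ly6 family, lies on chromosome 15 from 75044018 to 75048830 on the minus strand and had 0.180 to 0.594 CPM (median 0.312). Cldn5 and Ly6c1 thus rested on at most 75 and 42 counts per NeuN- library, and they had the widest errors of the 8 genes.

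Among the pericyte genes, Pdgfrb and Vtn stood above all 4 endothelial genes by median CPM, while Abcc9 and Rgs5 stood below Flt1. Pdgfrb, the receptor for platelet-derived growth factor B, lies on chromosome 18 from 61045150 to 61085061 on the plus strand and had 43.0 to 56.1 CPM (median 48.8), or 3193 to 4867 counts, the highest of the 8 genes. Vtn, the secreted adhesion protein vitronectin, lies on chromosome 11 from 78499091 to 78502324 on the plus strand and had 14.3 to 18.2 CPM (median 15.5). Abcc9, the regulatory subunit SUR2 of ATP-sensitive potassium (KATP) channels, lies on chromosome 6 from 142587862 to 142702315 on the minus strand and had 7.01 to 11.6 CPM (median 9.23). Its exons share 158 bases (1.89% of their length) with an antisense transcript, 5330439B14Rik, whose reads cannot be told apart from those of Abcc9 where the counting ignores strand. Rgs5, a regulator of G-protein signalling, lies on chromosome 1 from 169655501 to 169695813 on the plus strand and had 5.41 to 11.1 CPM (median 7.93). The other 7 genes shared no exon bases with another annotated gene.

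Per length of annotated exons, the order over the NeuN- libraries was Pdgfrb (median 8.90 FPKM, which is CPM per kilobase of exon), Vtn (7.65), Rgs5 (1.74), Abcc9, Flt1 (0.946), Pecam1 (0.938), Cldn5 (0.462) and Ly6c1 (0.186). The libraries of several neighbours in this order overlapped. Pdgfrb at 7.86 to 10.2 FPKM and Vtn at 7.04 to 8.99 FPKM did so, and so did Flt1 at 0.693 to 1.51 and Pecam1 at 0.841 to 1.11 FPKM. Rgs5, at 1.19 to 2.45 FPKM, overlapped Abcc9, at 0.837 to 1.38 FPKM. Nuclear RNA also holds unspliced transcripts, whose intronic part the exon length does not cover.

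**Figure D1:**
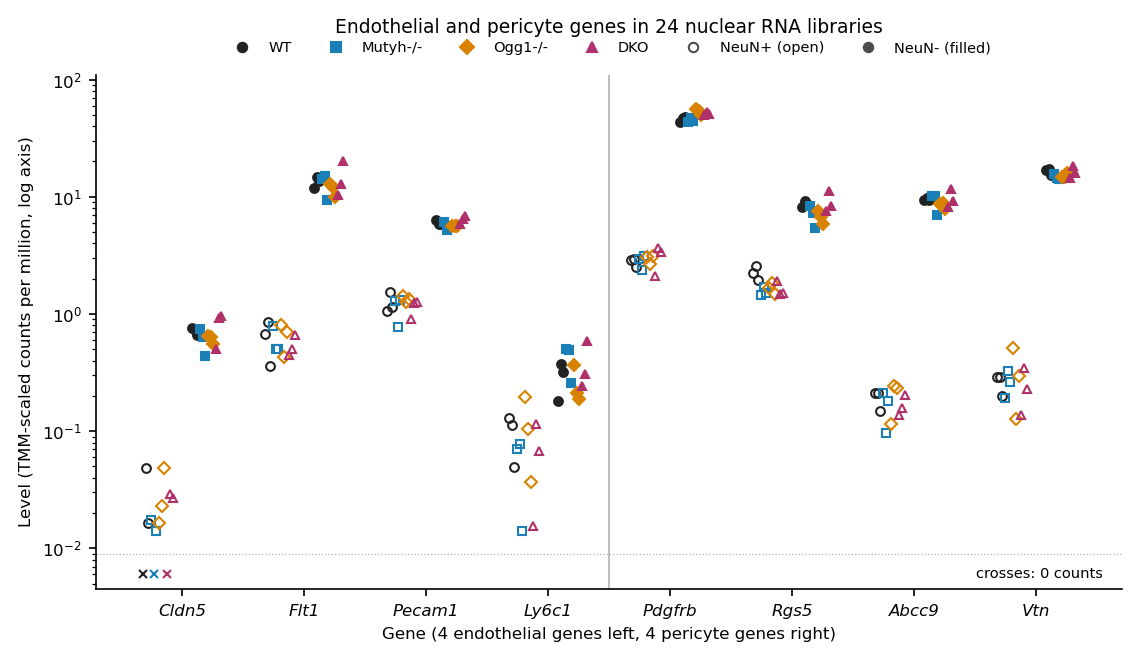
Level of each gene in each of the 24 libraries, in TMM-scaled CPM on a log axis, with open symbols for NeuN+ and filled symbols for NeuN- libraries and colour and shape for the genotype. The NeuN- libraries of each gene lie above its NeuN+ libraries except for Ly6c1, where the 2 sets overlap, and the 3 crosses at the foot are the NeuN+ libraries in which Cldn5 had 0 counts.

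The first comparison asked how strongly the sort separated these genes. All 8 were higher in NeuN- than in NeuN+ nuclei of WT mice (8 called of 8 tested by edgeR's quasi-likelihood test over all 24 libraries, adjusted p under 0.05 and absolute log2 fold change above 1). Among all 33523 tested genes, 21.6% were called higher in NeuN-. The differences ran from 62.6-fold for Vtn to 2.90-fold for Ly6c1.

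Vtn had 0.292, 0.292 and 0.198 CPM in the WT NeuN+ libraries and 16.8, 17.2 and 15.3 CPM in the WT NeuN- libraries. Its log2 fold change was 5.97 (standard error 0.23, adjusted p = 1.54e-16 with Benjamini-Hochberg adjustment). Abcc9 had 0.211, 0.211 and 0.149 CPM against 9.31, 9.75 and 9.45 CPM, a log2 fold change of 5.63 (standard error 0.22, adjusted p = 2.18e-16). In both genes the groups were far apart and their own libraries close together.

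Cldn5 had 0, 3 and 1 counts in the WT NeuN+ libraries and 75, 53 and 58 in the WT NeuN- libraries. The fitted log2 fold change was 4.93, with a standard error of 0.51 that reflects these few counts (adjusted p = 1.02e-08). Flt1 had 0.681, 0.859 and 0.363 CPM against 12.0, 14.6 and 13.7 CPM, a 21.0-fold difference (standard error 0.29 on the log2 scale). Pdgfrb had 2.90, 2.95 and 2.49 CPM against 43.0, 47.0 and 47.9 CPM, a log2 fold change of 4.05 (standard error 0.13).

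Pecam1, Rgs5 and Ly6c1 were separated less. Pecam1 had 1.05, 1.54 and 1.14 CPM in WT NeuN+ and 6.36, 5.87 and 5.87 CPM in WT NeuN- libraries, a log2 fold change of 2.28 (standard error 0.15). Rgs5 had 2.24, 2.58 and 1.97 CPM against 8.23, 9.17 and 8.72 CPM, a log2 fold change of 1.94 (standard error 0.16). The groups did not overlap in either gene. Ly6c1 had 8, 7 and 3 counts against 18, 27 and 28 counts, and its log2 fold change was 1.54 (95% interval 0.36 to 2.72, adjusted p = 0.0191). Without WT NeuN+ replicate 3 its adjusted p was 0.0874, and without WT NeuN- replicate 2 it was 0.0640, so that the call rests on these libraries. All 8 genes were also called higher in NeuN- nuclei of Mutyh-/-, Ogg1-/- and DKO, where 22.1%, 22.2% and 23.6% of all tested genes were, Ly6c1 in Ogg1-/- with an adjusted p of 0.0484 (edgeR's quasi-likelihood test).

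The share of RNA found in NeuN+ libraries differed by gene, and its source was not tested. Of the level in WT NeuN- nuclei, WT NeuN+ nuclei held 1.59% for Vtn (95% interval 1.17 to 2.11), 2.01% for Abcc9 (1.39 to 2.80), 3.04% for Cldn5 (0.819 to 7.91), 4.79% for Flt1 (3.95 to 5.76) and 6.08% for Pdgfrb (5.55 to 6.64). Pecam1, at 20.6% (17.8 to 23.6), Rgs5, at 26.1% (23.5 to 29.0), and Ly6c1, at 34.8% (19.6 to 58.9), lay higher. These are exact intervals for ratios of summed counts and cover counting error only. For comparison, the median over 5 oligodendrocyte markers was 0.596%, over 5 microglial markers 1.55% and over 6 astrocyte markers 5.30%. Pdgfrb, Pecam1, Rgs5 and Ly6c1 lay above these 3 medians, Pdgfrb only slightly above that of the astrocyte markers. The microglial markers alone spread from 0.337% to 42.6%.

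**Figure D2:**
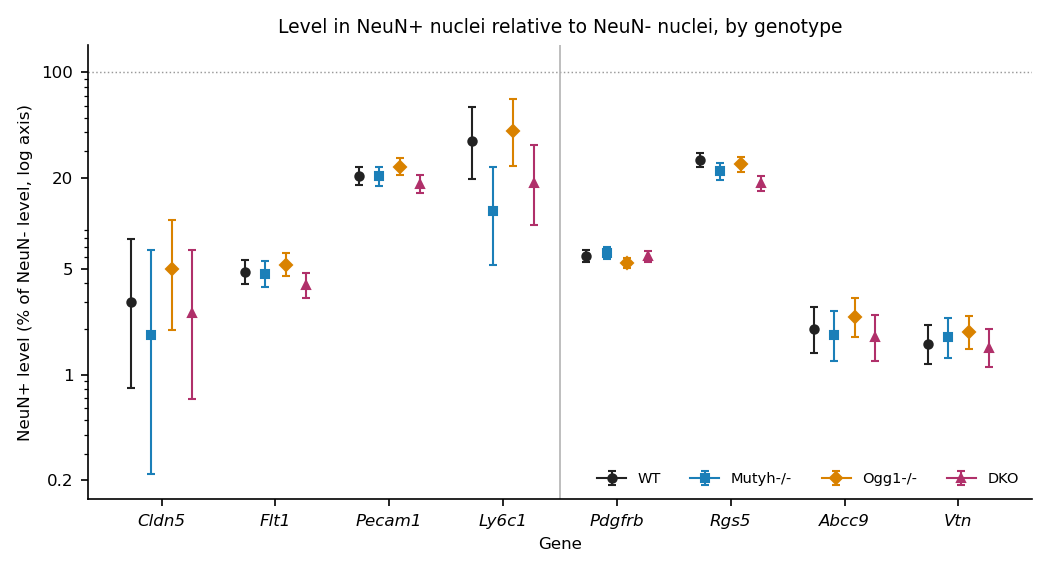
Level of each gene in NeuN+ libraries as a percentage of its level in NeuN- libraries of the same genotype (log axis; summed counts of 3 libraries each, with exact 95% intervals for counting error). Vtn and Abcc9 lie lowest and Pecam1, Rgs5 and Ly6c1 highest, with wide intervals for Cldn5 and Ly6c1. For Ly6c1 the values run from 12.0% in Mutyh-/- to 40.5% in Ogg1-/-.

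Other genes of the same cells did not all follow. Of 29 other endothelial genes, 16 were called higher and 3 lower in WT NeuN- nuclei (median log2 fold change 1.22), and of 11 other pericyte genes 9 were higher and 1 lower (median 3.28). Among the endothelial genes, Fli1, an ETS factor that microglia also express, had a log2 fold change of 6.73, Eng, the TGF-beta co-receptor endoglin, 4.32, and Slc2a1, the glucose transporter GLUT1, 2.69. Tek, the angiopoietin receptor TIE2, was lower in NeuN- (log2 fold change -2.03, adjusted p = 1.45e-13, edgeR), as were Ocln (occludin) and Sox18. Among the pericyte genes, Atp13a5, a transport ATPase, had 4.62, Anpep, aminopeptidase N, 4.54, and Cd248 (endosialin) 3.28, and P2ry14, a purine receptor, was lower at -1.57. As medians over these lists, 43.4% of the NeuN- level was found in NeuN+ for the other endothelial genes and 10.2% for the other pericyte genes. Genes of neighbouring cell types were mixed, with 1 of 5 smooth muscle genes (Des) and 4 of 6 fibroblast genes called higher and 1 fibroblast gene (Dcn) lower.

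Partners of the 8 genes were split between the fractions. Of the 4 KATP channel subunits, Abcc9 and Kcnj8, which encodes the pore Kir6.1 that SUR2 regulates and is its neighbour on chromosome 6 (142564837 to 142571614), were higher in NeuN- nuclei, with log2 fold changes of 5.63 and 6.76. Abcc8 and Kcnj11, the SUR1 and Kir6.2 subunits, were lower, at -3.40 and -2.69. Of the 13 VEGF and angiopoietin genes, 5 were higher and 4 lower in NeuN-. Vegfa, the main ligand of Flt1, had a log2 fold change of 2.68, whereas Kdr, the VEGF receptor 2, had 0.82 and missed the fold threshold. Of the 6 PDGF genes, Pdgfrb, Pdgfra, the receptor of oligodendrocyte precursors, and Pdgfd were higher, and Pdgfb, the ligand of Pdgfrb, had -0.01 (adjusted p = 0.896, edgeR). Of the integrin subunits that bind vitronectin, Itgav, Itgb3 and Itgb5 were higher in NeuN- (2.49, 2.61 and 4.71), and Itgb1 had 0.83. Of 9 tight junction genes including Cldn5, 5 were higher and 2 lower.

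The second question was whether the genotypes changed these genes. No gene of the 8 was called against WT in any genotype or fraction by edgeR's quasi-likelihood test (adjusted p under 0.05, log2 fold change beyond 0.5 in either direction, all 4 genotypes of a fraction fitted together). In NeuN+ 6 of the 8 were tested, Cldn5 and Ly6c1 having too few counts, and in NeuN- all 8. DESeq2 called 0 as well. Of all tested genes, the share called in NeuN+ was 0.428% for Mutyh-/-, 0.574% for Ogg1-/- and 0.302% for DKO, while in NeuN- it was 0.273%, 0.229% and 0.116%. At an unadjusted p under 0.05, 1 of 6 genes (Rgs5) passed in each genotype of NeuN+, and in NeuN- 0 of 8 passed in Mutyh-/-, 2 in Ogg1-/- (Pdgfrb and Rgs5) and 1 in DKO (Pdgfrb). Of all tested genes 18.7%, 12.3% and 13.5% did so in NeuN+ and 13.7%, 11.8% and 12.4% in NeuN-, in the same order. With 6 or 8 genes that share the same libraries, these counts cannot show whether the shares differ from the background.

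Rgs5 came nearest to a call in NeuN+. Its WT libraries had 2.24, 2.58 and 1.97 CPM, those of Mutyh-/- 1.45, 1.70 and 1.52, those of Ogg1-/- 1.67, 1.84 and 1.48, and those of DKO 1.89, 1.49 and 1.52 CPM. The 3 WT libraries lay above all 9 others. The log2 fold changes were -0.53 in Mutyh-/- (standard error 0.15, adjusted p = 0.0884), -0.46 in Ogg1-/- (standard error 0.14, adjusted p = 0.155) and -0.49 in DKO (standard error 0.14, adjusted p = 0.148), none past the threshold in edgeR's test. The 3 comparisons share the WT libraries, so they are not independent of each other. Over the alternative settings, the adjusted p stayed between 0.0509 and 0.311 in Mutyh-/-, between 0.118 and 0.494 in Ogg1-/- and between 0.0793 and 0.455 in DKO.

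In NeuN-, Rgs5 had 8.23, 9.17 and 8.72 CPM in WT, 8.32, 7.26 and 5.41 in Mutyh-/-, 7.54, 6.78 and 5.86 in Ogg1-/-, and 7.63, 11.1 and 8.34 in DKO. The Ogg1-/- libraries lay below the WT libraries and those of the other genotypes overlapped them. The log2 fold changes were -0.32, -0.38 and 0.04 in this order (adjusted p = 0.411, 0.392 and 0.936, edgeR). The difference between fractions in the DKO effect was 0.52 (95% interval 0.05 to 1.00, unadjusted p = 0.0323 and adjusted p = 0.493 from the edgeR fit of 24 libraries) and did not pass.

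In NeuN-, Pdgfrb had the smallest standard errors of the 8 genes against WT. Its libraries had 43.0, 47.0 and 47.9 CPM in WT and 43.2, 47.0 and 44.3 in Mutyh-/-, against 56.1, 53.4 and 50.1 in Ogg1-/- and 49.6, 53.1 and 50.7 in DKO. All 6 libraries of the latter genotypes lay above the 6 of the former. This split of the genotypes was not tested, and its share over all genes was not computed. Against WT, Ogg1-/- differed by 0.20 on the log2 scale (95% interval 0.08 to 0.33, adjusted p = 0.20) and DKO by 0.15 (0.02 to 0.27, adjusted p = 0.346), and neither passed edgeR's test. The upper bounds lay under the fold threshold of 0.5. Between Ogg1-/- and Mutyh-/- the difference was 0.25 (unadjusted p = 0.00111, adjusted p = 0.0879, edgeR). With DESeq2, the smallest adjusted p of the 8 genes over the 3 comparisons between knockouts of NeuN- was 0.0147, and 0 passed the fold threshold too. In NeuN+, where Pdgfrb had 2.12 to 3.64 CPM, the groups overlapped.

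Over the NeuN- libraries, the highest CPM was 1.28 times the lowest for Vtn and 1.65 times for Abcc9. Vtn had 16.8, 17.2 and 15.3 CPM in WT, 15.7, 14.3 and 14.3 in Mutyh-/-, 14.8, 14.7 and 15.8 in Ogg1-/- and 14.4, 18.2 and 15.8 in DKO, and each knockout overlapped WT. Abcc9 had 9.31, 9.75 and 9.45 CPM in WT, 10.1, 10.2 and 7.01 in Mutyh-/-, 8.63, 8.87 and 7.93 in Ogg1-/- and 8.20, 11.6 and 9.14 in DKO. Only its Ogg1-/- libraries did not overlap WT, with a log2 fold change of -0.17 (95% interval -0.49 to 0.14).

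Among the endothelial genes, Cldn5 had 0.752, 0.732 and 0.662 CPM in WT NeuN-, 0.748, 0.640 and 0.436 in Mutyh-/-, 0.648, 0.636 and 0.550 in Ogg1-/-, and 0.499, 0.916 and 0.965 in DKO. The Ogg1-/- libraries lay just below those of WT, and the DKO libraries spanned both sides of them. The log2 fold change in Ogg1-/- was -0.23 with an interval of -0.80 to 0.33, so at these counts a change past the fold threshold could not be told from none. Flt1 had 12.0, 14.6 and 13.7 CPM in WT, 14.1, 15.1 and 9.35 in Mutyh-/-, 12.8, 12.2 and 9.94 in Ogg1-/- and 10.3, 12.8 and 20.4 in DKO, and all groups overlapped. DKO replicate 3 held the highest value of the 12.

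Pecam1 had 6.36, 5.87 and 5.87 CPM in WT, 6.14, 5.24 and 5.61 in Mutyh-/-, 5.63, 5.68 and 5.65 in Ogg1-/- and 5.81, 6.43 and 6.92 in DKO. The Ogg1-/- libraries lay below those of WT and the others overlapped them. Its log2 fold changes against WT lay between -0.10 and 0.07, and all 3 intervals lay inside the fold threshold in both directions, from -0.29 to 0.26. Ly6c1 had 18, 27 and 28 counts in WT, 42, 42 and 22 in Mutyh-/-, 27, 15 and 12 in Ogg1-/- and 24, 20 and 40 in DKO. Its largest log2 fold change, 0.52 in Mutyh-/-, had an interval of -0.36 to 1.41. This interval holds both 0 and changes past the fold threshold, so that the 2 could not be told apart at this depth. Comparisons among the knockouts also called 0 of the 8 genes. Ogg1-/- against Mutyh-/-, DKO against Mutyh-/- and DKO against Ogg1-/- called 0.485%, 0.139% and 0.216% of all tested genes in NeuN+ and 0.521%, 0.122% and 0.132% in NeuN-. The interaction of genotype and fraction called 0 of the 8 genes as well, against 0.0209% of all genes for Mutyh-/-, 0.0537% for Ogg1-/- and 0.0567% for DKO. In NeuN- of Ogg1-/-, 5 of the 8 genes did not overlap WT (Cldn5, Pecam1, Rgs5 and Abcc9 below it, Pdgfrb above it), with 0 of them called where 0.229% of all genes were. Of all tested genes, the libraries of 19.4% did not overlap in this comparison. The 8 genes share the same libraries, and this count was not tested. In Mutyh-/- and DKO of NeuN- it was 0 and 1 of 8, against 19.2% and 16.8% of all genes. In NeuN+ it was 1 of 6 (Rgs5) in each genotype, against 21.6% in Mutyh-/-, 20.1% in Ogg1-/- and 17.5% in DKO.

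**Figure D3:**
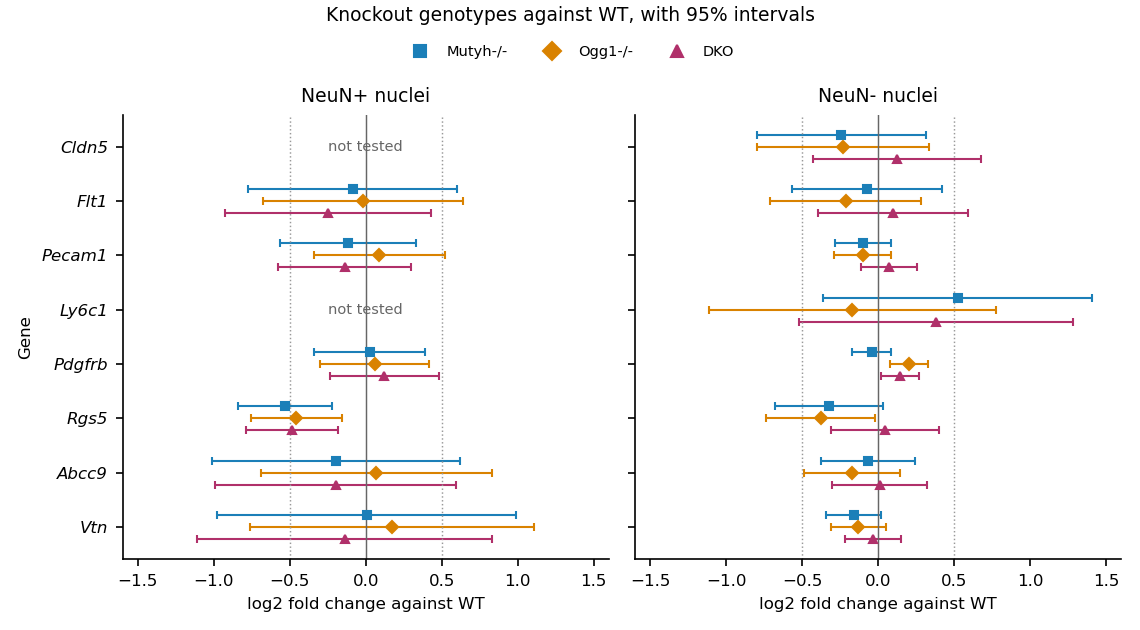
Log2 fold change of each gene in each knockout genotype against WT (horizontal axis), in NeuN+ (left) and NeuN- (right) nuclei, with 95% intervals from edgeR's quasi-likelihood fit and dotted lines at the fold threshold of 0.5. Only the intervals of Rgs5 in NeuN+ and in Ogg1-/- of NeuN-, and those of Pdgfrb in Ogg1-/- and DKO of NeuN-, exclude 0, before adjustment over all genes.

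**Figure D4:**
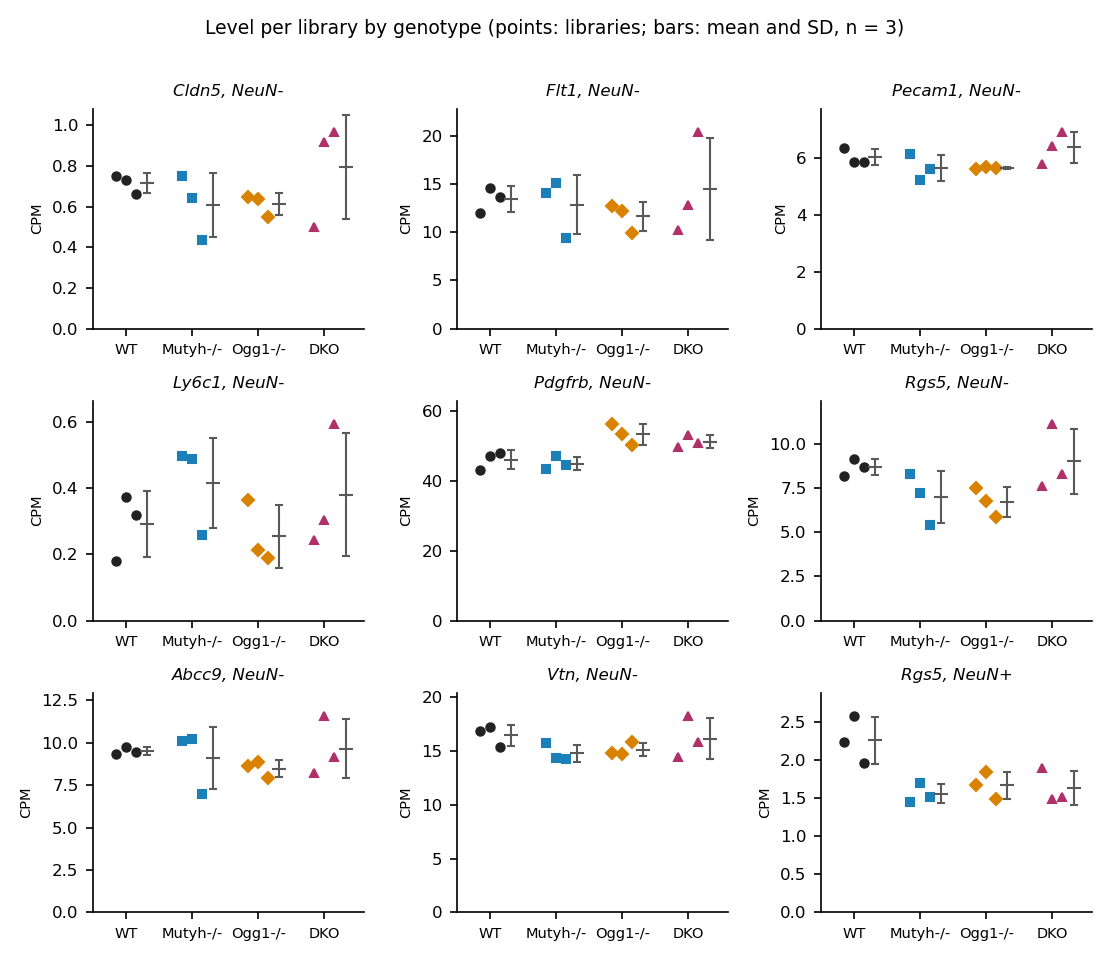
CPM of each gene per NeuN- library by genotype (vertical axes start at 0), with a last panel for Rgs5 in NeuN+; the bar beside each set is its mean and SD (n = 3). The WT libraries of Rgs5 in NeuN+ lie between 1.97 and 2.58 CPM, above all knockout libraries, and Mutyh-/- replicate 3 and DKO replicate 1 lie low in most NeuN- panels.

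Other genes of the vessel wall gave few calls. Of the 29 other endothelial genes, 0 were called against WT in any genotype or fraction. Their median log2 fold changes in NeuN- were -0.09 in Mutyh-/-, 0.01 in Ogg1-/- and 0.11 in DKO, where 24 of 29 lay above 0. Their summed level in the DKO NeuN- libraries was 354, 381 and 463 CPM in order of replicate, against 347 to 359 CPM in WT. Replicate 1 thus lay within the WT range, and replicate 3 was the highest. Of the 11 other pericyte genes, 0 were called, with medians of -0.12, -0.07 and 0.02. Tek was higher in NeuN+ of Ogg1-/- than of Mutyh-/- (log2 fold change 0.63, standard error 0.11, adjusted p = 0.0141, edgeR). In WT, Tek was lower in NeuN- than in NeuN+ nuclei (log2 fold change -2.03), and the cells behind its difference between knockouts were not tested. Of the KATP subunits in NeuN-, 0 were called. All 4 lay below 0 in Ogg1-/- (median -0.40), among them Kcnj8 at -0.38 (adjusted p = 0.377, edgeR). Abcc8 and Kcnj11 of these were higher in NeuN+ nuclei. Rbfox3 had 63.1 to 84.3 CPM in Ogg1-/- NeuN- libraries and 80.3 to 97.6 CPM in those of WT. The part of neuronal RNA in these values was not tested. The lists of VEGF and angiopoietin genes, PDGF genes, tight junction genes and vitronectin-binding integrins held 0 calls against WT.

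The lists of fibroblast, smooth muscle and choroid plexus genes had larger differences, none of them called. In DKO of NeuN-, the 6 fibroblast genes had a median log2 fold change of 0.70 (0.51 to 1.26), the 5 smooth muscle genes 0.35 and the 5 choroid plexus genes 1.17, each with 0 genes called. At an unadjusted p under 0.05, 5 of 6, 3 of 5 and 0 of 5 of them passed. DKO replicate 3 stood highest. Its summed level of the fibroblast genes was 59.7 CPM, against 30.2 and 26.4 in the other DKO libraries and 19.8 to 25.5 in WT, that of the smooth muscle genes 15.6 CPM against 8.61 and 7.13 (WT 6.39 to 7.23), and that of the choroid plexus genes 213 CPM against 7.15 and 61.8 (WT 33.2 to 60.1). The fibroblast sum was above all WT libraries in Mutyh-/- (28.4 to 42.4 CPM) and Ogg1-/- (28.6 to 31.5 CPM) too, with median log2 fold changes of 0.44 and 0.41 and 0 genes called. The choroid plexus sum was 17.7 to 22.0 CPM in Mutyh-/- and averaged 64.8 ± 48.2 CPM (SD, n = 3) in Ogg1-/-, with 9.17 CPM in the lowest library. No gene of these lists was at 0 in any NeuN- group. DKO replicate 3 also had the highest levels of Cldn5, Flt1, Pecam1 and Ly6c1. Its summed level of the 4 endothelial genes was 28.8 CPM, against 16.8 and 20.4 in the other DKO libraries. The part of these cell types in the values of the 8 genes was not tested. Of the astrocyte markers, Aldh1l1 was called higher in Ogg1-/- of NeuN- (log2 fold change 0.52, adjusted p = 0.0483, edgeR).

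The last question was whether the 8 genes vary together between libraries. For each NeuN- library and gene, the deviation of its log2 CPM from the mean of its genotype was taken. Mutyh-/- replicate 3 and DKO replicate 1 lay below their genotype's mean in all 8 genes, with median deviations of -0.35 and -0.23. DKO replicate 3 lay above it in all 4 endothelial genes and below it in all 4 pericyte genes. Over the 28 pairs of genes, 26 Pearson correlations across the 12 libraries were above 0 (median 0.51), with medians of 0.65 within the endothelial genes, 0.53 within the pericyte genes and 0.47 between the groups. Since the 8 genes share each library's scaling and its mixture of nuclei, these values are a description of the libraries.

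Flt1 and Ly6c1 gave r = 0.900 and rho = 0.874 (two-sided exact permutation within genotypes, p = 0.00154 for r and adjusted p = 0.0432 over 28 pairs, n = 12). Rgs5 and Abcc9 gave r = 0.928 and rho = 0.916 (exact permutation p = 0.00617 for r, adjusted p = 0.0864). Without the 2 libraries farthest from the median of the first gene, r was 0.865 and 0.854. With each library left out in turn, r of Flt1 and Ly6c1 stayed between 0.856 and 0.931. The adjusted p lay between 0.0648 and 0.130, and 0 pairs passed. With 11 libraries the smallest possible permutation p, 0.00231, adjusts to 0.0648 for a single pair. A pair could therefore not pass alone, and these counts of 0 do not show whether the pair depends on 1 library. The lowest median over the 28 pairs, 0.340, was found without DKO replicate 1. The 2 pairs below 0 were Pdgfrb with Pecam1 (-0.38) and Pdgfrb with Vtn (-0.06), whereas Pdgfrb gave 0.23 to 0.57 with the other 5 genes.

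**Figure D5:**
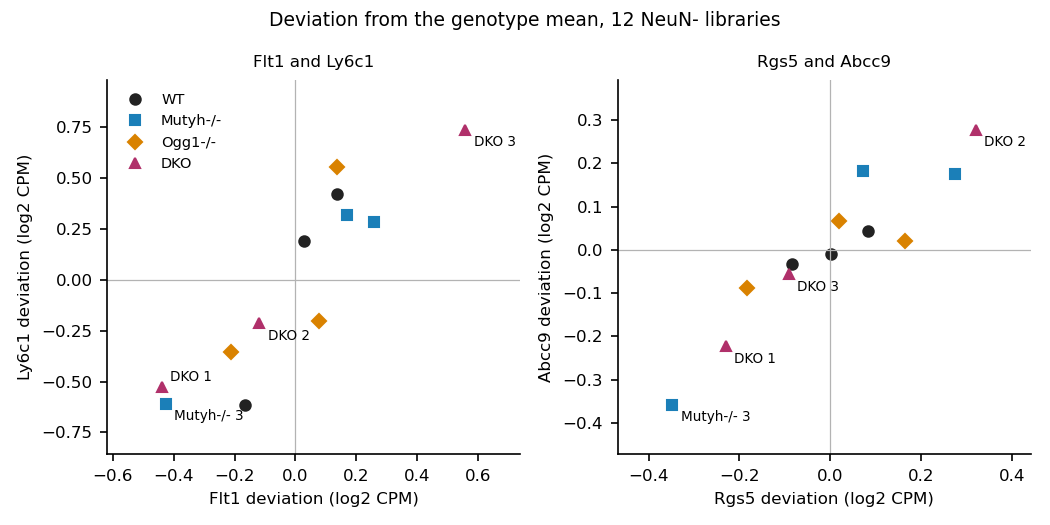
Deviation of log2 CPM from the mean of the genotype for Flt1 and Ly6c1 (left) and for Rgs5 and Abcc9 (right), 1 point per NeuN- library (12 in all) with colour and shape for the genotype. Mutyh-/- replicate 3 and DKO replicate 1 lie low in both panels, and DKO replicate 3 is highest on the left but below 0 on the right.

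Among 21202 genes with a mean of at least 1 CPM, those whose log2 CPM, centred on the mean of the 12 NeuN- libraries, was most like the mean of the endothelial genes were 4930484I04Rik (r = 0.947), Stt3b (0.887), B530045E10Rik (0.883), Agap3 (0.876) and Gm29438 (0.870). For the pericyte genes they were Gm48933 (0.823), Itgb1 (0.805), Nat1 (0.799), Gm49594 (0.792) and Gm10401 (0.789). Stt3b encodes a subunit of the oligosaccharyltransferase and Itgb1 the integrin beta 1 subunit. None of these genes was among the other endothelial or pericyte genes listed, and the values are descriptions picked as the highest of many.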

How the data were processed

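Nuclear RNA of sorted hippocampal nuclei was sequenced in paired reads with a stranded total RNA kit. The authors aligned the reads to GRCm38 with HISAT2 2.1.0 and used featureCounts with the annotation of Ensembl release 102, and they deposited raw counts with 1 column per library. How strand, overlapping genes and reads with several matches were counted is not given in the sources used here. Counts were analysed with R 4.3.3 and edgeR 4.0.16 (filterByExpr, TMM, quasi-likelihood test, Benjamini-Hochberg adjustment over all tested genes), which kept 30132 genes in NeuN+, 31863 in NeuN- and 33523 in the fit of all 24 libraries. Depth per library is given above. Levels are CPM, and FPKM uses the summed exon length of GENCODE vM21. Intervals are at 95%. Scripts were tested on simulated counts. The genes, lists and tests were chosen with earlier results of these data known. From the lists, called genes (at most 3 per list and direction by p) and partners of the 8 genes are named, and the 5 genes most alike each group. Correlations were tested by exact permutation of libraries within genotypes. Alternatives were RLE factors, other filters, DESeq2 1.42.0, fits of 2 genotypes, a replicate block, no fold threshold and each library left out.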

Additional observations from a re-analysis of the deposited data

How the results depend on the processing

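Over 590 alternative values of 50 log2 fold changes of the 8 genes, 588 kept their side of the threshold and their direction where called, 2 lost the call and 0 reversed. Both losses were Ly6c1 between fractions, at 1.23 without WT NeuN+ replicate 3 and 1.33 without WT NeuN- replicate 2. Another 34 values changed sign without being called in either setting. The 8 calls between fractions became 4 when every library had to hold at least 10 counts, since only Flt1, Pecam1, Pdgfrb and Rgs5 were then tested. All counts of 0 against WT, between knockouts and for the interaction remained 0 in every alternative. With no fold threshold they were 0 by edgeR, while DESeq2's smallest adjusted p between knockouts of NeuN- was 0.0147 and met only the adjusted p threshold. Of the 28 correlations, 1 pair passed with RLE factors as well. With each NeuN- library left out, an alternative added after seeing the data, 0 pairs passed. There a single pair could not pass even at the smallest possible permutation p. With a replicate number left out, the smallest possible p of 0.125 cannot pass either, with median r of 0.182, 0.679 and 0.635. In the main fits, replicate numbers were not taken to pair the samples, since no label says so and not every same-numbered pair of both fractions had correlated deviations over 0.1. The lowest was 0.0117 in WT, where the mean was 0.0692, and in DKO all 3 were over 0.1 (mean 0.221). Means were 0.192 in Mutyh-/- and 0.197 in Ogg1-/-, while pairs of unlike number had means from -0.109 in DKO to -0.0346 in WT. Of the 24 libraries, 19 correlated best with their own number among the 3 libraries of their genotype in the other fraction. The study collected both fractions in the sort, so fractions of the same number may come from the same pool. No label states this, and the main tests between fractions and of the interaction treat them as unpaired. Within a fraction the block was the replicate number. In the fit of 24 libraries it was genotype with replicate number, which pairs the fractions. With these blocks, 8 genes were called between fractions and 0 elsewhere, so that the block changed no call. Depth limits Cldn5, with 0 to 4 counts in NeuN+ libraries, and Ly6c1, with 1 to 12.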
